A study of Homo sapiens with 9 samples.

Results

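A protease cascade of stratified epithelia was followed through 10 genes across 9 libraries. They were the kallikreins KLK5, KLK6, KLK7, KLK8, KLK10, KLK11 and KLK13, the membrane protease matriptase (ST14), and the inhibitors SPINK5 and SPINT1. They are a given list of epidermal kallikreins, matriptase and inhibitors of these enzymes, found in the data by matching Ensembl gene identifiers to symbols. All 10 were present among the 41857 genes in the deposited values. The study measured polyadenylated RNA of MCF10A, an established non-tumorigenic human mammary epithelial cell line, after expression of isoforms of p63, a transcription factor of basal and stratified epithelia. The vector-only line, the human deltaNp63alpha line and the human deltaNp63beta line gave 3 libraries each, which the design text calls biological triplicates. Every line, the vector line included, received 500 ng/mL doxycycline for 24 h, so that no library without doxycycline entered the comparison. The labels give the genotype as WT and do not say whether a line was a single clone or what drove the transgene beyond induction by doxycycline. DeltaNp63alpha and deltaNp63beta both lack the N-terminal transactivation domain of the longer p63 proteins and differ at the C terminus.

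Tissue kallikreins are secreted trypsin-like or chymotrypsin-like serine proteases that are made as inactive precursors and activate one another. In the epidermis KLK5 and KLK7 cleave the corneodesmosomes that hold dead surface cells together, and SPINK5 (LEKTI) restrains them. Loss of SPINK5 causes Netherton syndrome. Matriptase is a type II transmembrane serine protease of epithelial cells that activates other proteases and receptors at the cell surface, and SPINT1 (HAI-1) is its cognate transmembrane inhibitor.

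The 9 libraries held between 22483140 and 23213870 normalized estimated counts each. TP63, as a check of the labels, stood at 315.6, 332.0 and 259.3 normalized estimated counts in the vector libraries, at 4426, 6983 and 6961 with deltaNp63alpha and at 6719, 4183 and 4870 with deltaNp63beta. Its level was 19.9-fold higher with deltaNp63alpha and 17.1-fold higher with deltaNp63beta than with vector, and the isoform lines overlapped (log2 difference -0.22 ± 0.21 SE, limma adjusted p = 0.479). A gene-level value does not separate the transgene from the cell's own TP63. All 13 mammary epithelial markers on a list of keratins, cadherins, integrins and related genes were high enough to be tested, and their summed level was 149818 to 158845 with vector, 260362 to 276543 with deltaNp63alpha and 379841 to 393537 with deltaNp63beta. Of the 13, 11 were called higher and 1 lower with deltaNp63alpha, and 11 and 0 with deltaNp63beta against vector. Between the isoforms 9 were called higher and 1 lower. Over all genes tested the shares called higher and lower were 8.13% and 6.37%, 21.8% and 19.5%, and 17.4% and 15.5% in these comparisons. KRT5 was the largest part of the sum, at a mean of 55464 with vector, 92598 with deltaNp63alpha and 146980 with deltaNp63beta. KRT8 fell with deltaNp63alpha (-0.30 ± 0.05, limma adjusted p = 0.00146). EGFR was lower with deltaNp63beta than with deltaNp63alpha (-0.48 ± 0.05, limma adjusted p = 1.8e-05). The summed level rose together with several of the genes described here, the list holds TP63 itself, and its part in those results was not tested. PTPRC, CD3E and LYZ of leukocytes, CDH5 and CLDN5 of endothelium, COL3A1 of fibroblasts and TYR and DCT of melanocytes stood at 5 or below in all 9 libraries. In the order vector, deltaNp63alpha and deltaNp63beta, the summed level of the 9 fibroblast markers was 10606 to 10949, 7788 to 7918 and 12517 to 13579, and that of the 9 leukocyte markers 1355 to 1521, 1030 to 1323 and 1107 to 1228. The 6 endothelial markers summed to 204 to 276, 171 to 174 and 110 to 143, and the 5 melanocyte markers to 38.9 to 61.2, 42.7 to 84.8 and 33.1 to 54.2. FBLN1, at a mean of 9233 with vector, carried most of the fibroblast sum, and CD68, at 1110, most of the leukocyte sum. With deltaNp63beta against vector, 3 of 6 tested fibroblast markers rose and 1 fell, and 2 of 4 leukocyte markers rose and 2 fell. In the same comparison 3 of 3 endothelial markers fell, while 0 of 3 melanocyte markers were called by limma. Of all genes tested, 21.8% were called higher and 19.5% lower there. CD14 rose from a mean of 23.6 to 170 (log2 2.77 ± 0.41, limma adjusted p = 0.000277), LAPTM5 by 0.96 ± 0.16 (adjusted p = 0.000604) and MFAP5 by 1.51 ± 0.26 (adjusted p = 0.000842), and DCN fell (-2.87 ± 0.11, adjusted p = 8.4e-09). The marker genes named with values here were chosen after their values were seen. The part of these markers in the results was not tested. In bulk RNA, fewer cells of a type and less RNA per cell cannot be told apart.

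With deltaNp63beta, matriptase was the most abundant of the 10 genes per kilobase of transcript. KLK5, KLK7 and KLK10 were near 0 with vector and with deltaNp63alpha and were present in each deltaNp63beta library. ST14 and SPINT1 rose with deltaNp63alpha and rose further with deltaNp63beta. SPINK5 rose with both isoforms, to levels that overlapped. KLK6, KLK8, KLK11 and KLK13 stayed at or below 12.4 normalized estimated counts in every library.

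The promoters of the 3 kallikreins that were high with deltaNp63beta, and that of SPINK5, are shown because the kallikreins were high only with deltaNp63beta and SPINK5 with both isoforms. The sequences are the 250 bases before the RefSeq transcription start (GRCh38.p14), 5′ to 3′ on the strand of the gene, with motif matches in capitals. KLK5 spans chr19:50943303-50953093 on the minus strand, KLK7 chr19:50976482-50984099 on the minus strand, KLK10 chr19:51012739-51020175 on the minus strand and SPINK5 chr5:148025683-148137289 on the plus strand (GRCh38, GENCODE 29). The shown windows are chr19:50953039-50953288 for KLK5, chr19:50984065-50984314 for KLK7, chr19:51019862-51020111 for KLK10 and chr5:148063730-148063979 for SPINK5.
KLK5: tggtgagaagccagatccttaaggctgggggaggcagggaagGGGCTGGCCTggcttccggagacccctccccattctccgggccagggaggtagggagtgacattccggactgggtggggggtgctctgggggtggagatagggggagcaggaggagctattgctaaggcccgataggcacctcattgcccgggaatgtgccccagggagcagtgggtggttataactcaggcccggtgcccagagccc
KLK7: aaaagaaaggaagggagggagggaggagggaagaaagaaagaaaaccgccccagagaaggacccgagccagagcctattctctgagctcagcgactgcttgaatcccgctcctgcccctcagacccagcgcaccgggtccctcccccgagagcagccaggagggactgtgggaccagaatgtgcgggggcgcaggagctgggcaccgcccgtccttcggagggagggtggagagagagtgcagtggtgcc
KLK10: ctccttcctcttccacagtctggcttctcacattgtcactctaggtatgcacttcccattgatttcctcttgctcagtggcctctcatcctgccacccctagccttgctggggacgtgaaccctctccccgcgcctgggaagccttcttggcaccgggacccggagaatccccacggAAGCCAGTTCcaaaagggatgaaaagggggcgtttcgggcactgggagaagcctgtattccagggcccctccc
SPINK5: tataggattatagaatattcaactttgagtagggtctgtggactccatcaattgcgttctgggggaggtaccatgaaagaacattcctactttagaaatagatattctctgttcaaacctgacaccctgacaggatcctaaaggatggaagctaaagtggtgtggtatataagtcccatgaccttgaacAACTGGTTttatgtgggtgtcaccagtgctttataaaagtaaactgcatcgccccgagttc
The RefSeq start of SPINK5 lies 38297 bases inside the GENCODE gene, and that of KLK10 314 bases inside, so these windows lie before a start inside the GENCODE gene span.

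Windows of 250 bases before and 50 after the start were searched on both strands for the p53 family 10-base element with at most 1 mismatch outside its fixed C and G, for TGANTCA, bound by AP-1 factors, and for AACCNGTT, bound by grainyhead factors. RefSeq windows were matched for 8 of the 10 genes, with KLK8 and ST14 the exceptions. The capitals in KLK5, first base at -208 from the start, and in KLK10, first base at -73, mark the p53 family element, and the KLK7 window held none of the 3 motifs. KLK14, a kallikrein outside the 10 genes that was also high only with deltaNp63beta, held none of the 3 motifs in its windows. The capitals in SPINK5, first base at -61, mark AACCNGTT on the reverse strand. The p53 family element with 1 mismatch was also found in the windows of KLK6 at -36, KLK11 at -140 and KLK13 at -51, genes too low to be tested. TGANTCA was found in the window of SPINT1 at -6. A further RefSeq window of SPINT1 held the p53 family element without mismatch at -241. Of 35116 RefSeq windows of the same length, 45.1% held the p53 family element with up to 1 mismatch, 6.63% held it without mismatch, 7.71% held TGANTCA and 1.73% held AACCNGTT. A match is a description of the letters and not a binding site.

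KLK5, a trypsin-like kallikrein that can start the activation of the others, was listed at 0, 1.07 and 0 normalized estimated counts in the vector libraries and at 0, 2.79 and 0 with deltaNp63alpha. With deltaNp63beta it stood at 31.6, 62.2 and 38.7. Each deltaNp63beta library was above all 6 others. KLK5 reached the level needed for testing, at least 10 normalized estimated counts in at least 3 libraries, only through deltaNp63beta. It had to differ between groups to be tested, so the adjusted p-values of its comparisons with deltaNp63beta are no independent support. The log2 fold change of deltaNp63beta against vector was 5.09 ± 0.78 SE (limma adjusted p = 0.000334), and against deltaNp63alpha 4.80 ± 0.78 (adjusted p = 0.000744). With deltaNp63alpha against vector it was 0.29 ± 0.78 and was not called (adjusted p = 0.861).

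KLK10, a kallikrein first described in mammary epithelium, stood with deltaNp63beta at 25.1 normalized estimated counts per kilobase of transcript, beside 28.3 for KLK5 and 11.4 for KLK7. This order rests on the longest coding transcript, 3111 bases for KLK10 and 1563 for KLK5, and the transcript expressed is not known. In mean counts with deltaNp63beta, KLK10 stood at 78.1 and KLK5 at 44.2. By library, KLK10 was at 0, 2.56 and 1.60 with vector, at 1.79, 5.96 and 2.36 with deltaNp63alpha and at 60.3, 79.2 and 94.6 with deltaNp63beta. The deltaNp63beta libraries lay apart from the other 6, and the vector and deltaNp63alpha libraries overlapped. Its log2 fold change was 5.21 ± 0.61 for deltaNp63beta against vector (limma adjusted p = 4.7e-05), 4.27 ± 0.61 against deltaNp63alpha (adjusted p = 0.000327) and 0.94 ± 0.61 for deltaNp63alpha against vector (adjusted p = 0.37). KLK10, like KLK5, was tested only because its deltaNp63beta libraries were high.

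KLK7, the chymotrypsin-like kallikrein of the stratum corneum, was at 2.59, 0 and 2.95 with vector and at 3.99, 0 and 1.21 with deltaNp63alpha. With deltaNp63beta it reached 20.7, 26.3 and 18.5, again above all other libraries. The log2 fold change was 3.22 ± 0.81 against vector (limma adjusted p = 0.00809) and 3.34 ± 0.81 against deltaNp63alpha (adjusted p = 0.0087), and -0.12 ± 0.81 for deltaNp63alpha against vector (adjusted p = 0.948). KLK7, like KLK5, was tested only because its deltaNp63beta libraries were high. The call of KLK7 was lost with a pseudocount of 0.1 in place of 1 (adjusted p = 0.0532 against vector and 0.0537 against deltaNp63alpha) and against a fold of 1.5 (0.0674 and 0.0989).

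These 3 genes passed the filter, at least 10 normalized estimated counts in at least 3 libraries, only through the 3 deltaNp63beta libraries, and had to differ between groups to be tested. Their fold changes depend on the pseudocount because the other groups are near 0: over the alternatives that gave a value, the log2 fold change of deltaNp63beta against vector was 3.16 to 7.55 for KLK5, 3.70 to 6.65 for KLK10 and 1.99 to 4.53 for KLK7. Antisense genes lie opposite KLK5, KLK7 and KLK10, and whether strand was used in counting is not given in the sources used here, so their reads could not be told apart.

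The other 4 kallikreins did not pass the filter. KLK8, a trypsin-like protease of skin and brain (neuropsin), was at 2.76, 1.73 and 1.63 with vector, 1.37, 4.11 and 0 with deltaNp63alpha and 5.75, 4.71 and 9.19 with deltaNp63beta. The lowest deltaNp63beta library was above the highest of the other 6. With the filter lowered to 1 the log2 difference of deltaNp63beta was 1.29 ± 0.62 against vector (limma adjusted p = 0.148) and 1.67 ± 0.62 against deltaNp63alpha (limma adjusted p = 0.0733). KLK11 went the other way in its values, with 5.09, 11.3 and 12.4 in vector, 5.94, 5.30 and 3.86 with deltaNp63alpha and 5.47, 2.29 and 2.18 with deltaNp63beta, and the groups overlapped (-1.30 ± 0.52 for deltaNp63beta against vector with the lowered filter, limma adjusted p = 0.08).
KLK6, a trypsin-like kallikrein of brain and epithelia, was at 2.82, 0.90 and 3.36 with vector, 1.59, 2.45 and 0 with deltaNp63alpha and 0, 8.24 and 1.57 with deltaNp63beta. KLK13 was listed at 0 in 6 of 9 libraries and reached at most 2.20. Neither was called in any comparison with the lowered filter or with none.

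**Figure D1:**
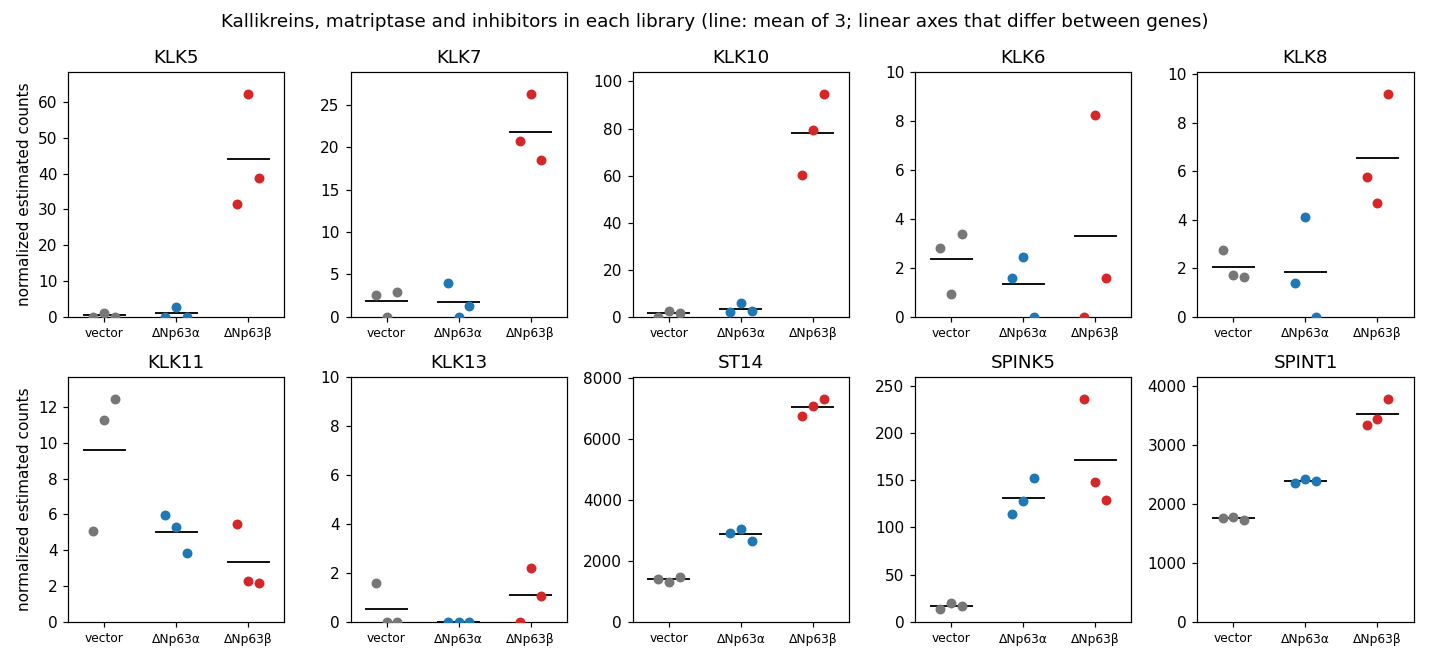
Normalized estimated counts (vertical axis, linear and different for each gene) of the 10 genes in the 3 vector, 3 deltaNp63alpha and 3 deltaNp63beta libraries (horizontal axis), with one point per library and a line at the mean of 3. KLK5, KLK7 and KLK10 lie near 0 in all libraries without deltaNp63beta, ST14 and SPINT1 climb from vector to deltaNp63alpha to deltaNp63beta, and the deltaNp63alpha and deltaNp63beta points of SPINK5 overlap.

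The 15 kallikreins of the cluster on chromosome 19 span chr19:50819148-51084245, 265 kb, and 13 of them lie on the minus strand. In chromosomal order they run KLK1, KLK15, KLK3, KLK2, KLK4, KLK5, KLK6, KLK7, KLK8, KLK9, KLK10, KLK11, KLK12, KLK13 and KLK14, between C19orf48P and CTU1. KLK15, KLK3 and KLK12 were listed at 0 in all 9 libraries. KLK5, KLK7 and KLK10, the members high with deltaNp63beta, alternated in this order with KLK6, KLK8 and KLK9, which stayed at or below 9.19. At these low levels KLK8 and KLK9 were still higher in each deltaNp63beta library than in every vector and deltaNp63alpha library. KLK9 was at 0.98, 1.02 and 1.96 with deltaNp63beta and at 0 in the vector and deltaNp63alpha libraries. KLK14, an activator of other kallikreins at the far end of the cluster, was at 2.77, 3.34 and 2.09 with vector, 1.99, 4.77 and 1.03 with deltaNp63alpha and 16.8, 17.5 and 19.7 with deltaNp63beta. Like the 3 above, it passed the filter only through deltaNp63beta (2.36 ± 0.60 against vector, limma adjusted p = 0.00823; 2.54 ± 0.60 against deltaNp63alpha, adjusted p = 0.00729). KLK4 varied within every group, from 3.13 to 57.1 with vector, from 8.39 to 38.2 with deltaNp63alpha and from 8.83 to 45.7 with deltaNp63beta, and was not called.
The flanking genes were measured at higher counts and were not called in any of the 3 comparisons. For deltaNp63beta against vector, the log2 fold change was 0.30 ± 0.34 for C19orf48P (limma adjusted p = 0.515) and 0.26 ± 0.12 for CTU1 (adjusted p = 0.111).

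**Figure D2:**
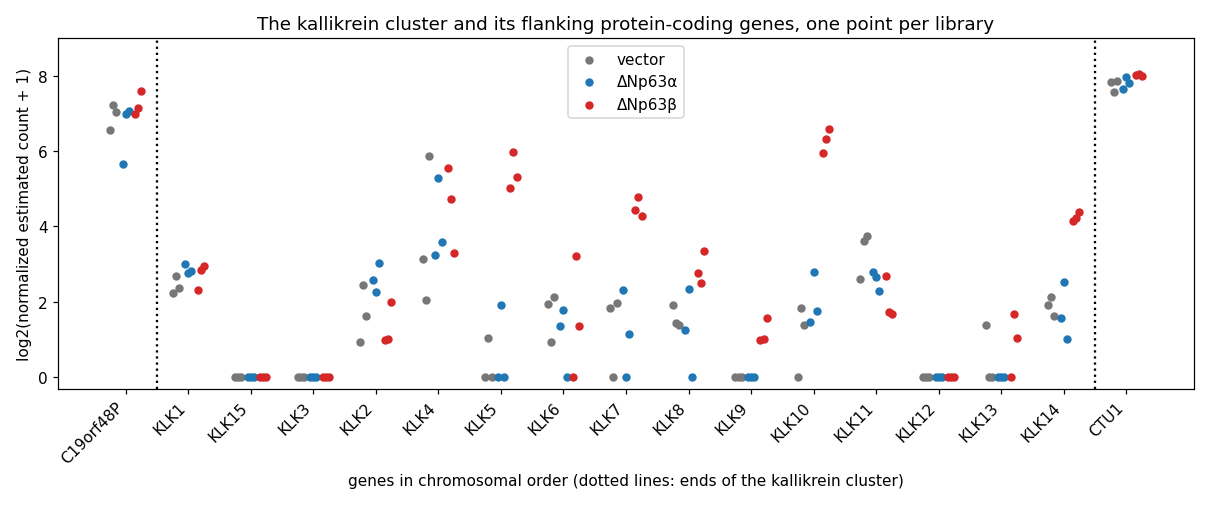
Log2(normalized estimated count + 1) of the 15 kallikreins in chromosomal order, with the nearest protein-coding neighbour at each end outside the dotted lines and one point per library (grey vector, blue deltaNp63alpha, red deltaNp63beta). The red points of KLK5, KLK7, KLK10 and KLK14 stand above the grey and blue ones, and KLK8 and KLK9 show smaller gaps.

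ST14 (chr11:130159562-130210376, plus strand) was at 1387, 1317 and 1471 normalized estimated counts with vector, 2897, 3025 and 2657 with deltaNp63alpha and 6730, 7069 and 7286 with deltaNp63beta. The groups did not overlap, and the means were 1392 ± 77.1, 2860 ± 187 and 7028 ± 280 (SD, n = 3 each). Its level was 2.05-fold higher with deltaNp63alpha than with vector (log2 1.04 ± 0.06 SE, limma adjusted p = 7.39e-07) and 5.05-fold higher with deltaNp63beta (2.34 ± 0.06, adjusted p = 2.66e-10). Between the isoforms the difference was 2.46-fold (1.30 ± 0.06, limma adjusted p = 6.58e-08). Both comparisons with vector share the vector libraries.

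SPINT1 (chr15:40844018-40858207, plus strand) was at 1765, 1780 and 1733 with vector, 2364, 2420 and 2397 with deltaNp63alpha and 3343, 3450 and 3778 with deltaNp63beta, and its groups did not overlap. It was 1.36-fold higher with deltaNp63alpha (log2 0.44 ± 0.05, limma adjusted p = 0.000137) and 2.0-fold higher with deltaNp63beta (1.00 ± 0.05, adjusted p = 5.73e-08) than with vector. The difference between the isoforms was 1.47-fold (0.56 ± 0.05, limma adjusted p = 1.21e-05). Tested against a fold of 1.5, the deltaNp63alpha difference from vector and the difference between the isoforms were not called (limma adjusted p = 1 for each). The antisense gene SPINT1-AS1 lies opposite SPINT1.

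SPINK5 was at 13.1, 20.4 and 16.9 with vector, 114.6, 128.0 and 151.9 with deltaNp63alpha and 235.7, 148.6 and 129.3 with deltaNp63beta. Every library of either isoform was above every vector library, and the 2 isoform groups overlapped. It was 7.49-fold higher with deltaNp63alpha (log2 2.91 ± 0.26, limma adjusted p = 1.83e-05) and 9.48-fold higher with deltaNp63beta (3.24 ± 0.26, adjusted p = 1.97e-06) than with vector. The isoforms differed by 0.34 ± 0.26, which was not called (limma adjusted p = 0.342) and does not show that they act alike.

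Of the 10 genes, 6 were tested. Of these 6, 3 were called higher with deltaNp63alpha than with vector, 6 with deltaNp63beta than with vector and 5 with deltaNp63beta than with deltaNp63alpha, and limma called 0 of the 6 lower in each (also 0 at an unadjusted p under 0.05). KLK11, lower in 2 of 3 deltaNp63beta libraries than in every vector library, is not among the 6. Over the 15108 genes tested, 8.13% were called higher and 6.37% lower with deltaNp63alpha against vector, 21.8% higher and 19.5% lower with deltaNp63beta against vector, and 17.4% higher and 15.5% lower between the isoforms. The counts of 6 and 5 include the 3 kallikreins that had to differ to be tested and are no support for a shared direction.

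**Figure D3:**
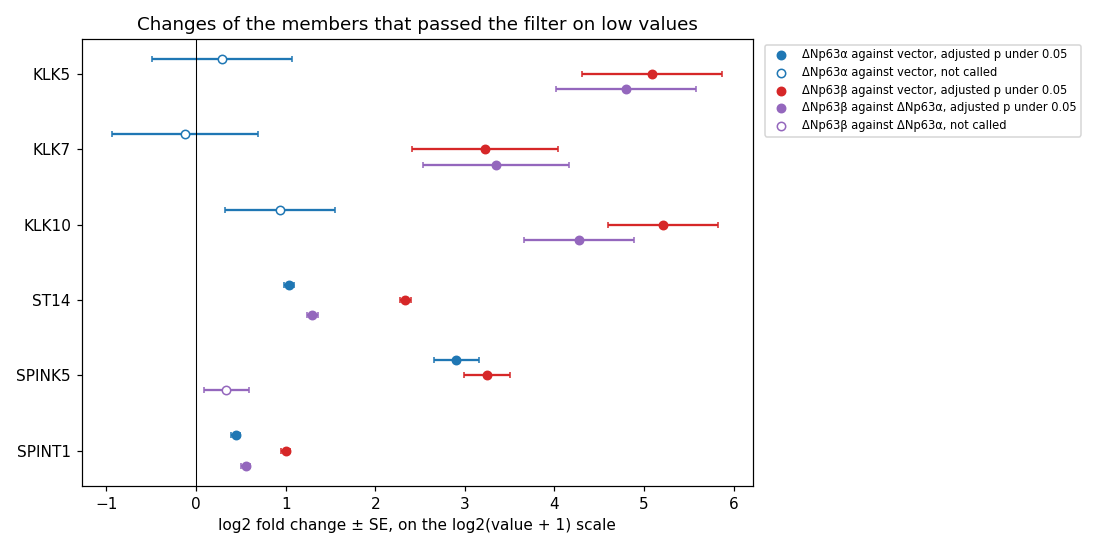
Log2 fold change (horizontal axis, on the log2(value + 1) scale) with its standard error for the 6 genes that passed the filter, in deltaNp63alpha against vector (blue), deltaNp63beta against vector (red) and deltaNp63beta against deltaNp63alpha (purple), with filled points at an adjusted p under 0.05. The kallikreins have a blue point that is not called, and SPINK5 a purple one. KLK5, KLK7 and KLK10 passed the filter only through the deltaNp63beta libraries, so their filled points are no independent support.

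Levels of different genes were compared per kilobase of the longest coding transcript. The transcript expressed is not known, so which of 2 genes stands higher can depend on this choice. Matriptase stood below SPINT1 with vector, at 393 against 576 normalized estimated counts per kilobase. With deltaNp63alpha the means were 808 and 783, and with deltaNp63beta 1986 and 1153. The ratio of ST14 to SPINT1 averaged 0.683 ± 0.047 in the vector libraries, 1.03 ± 0.065 under deltaNp63alpha and 1.72 ± 0.054 under deltaNp63beta (SD, n = 3 each), and the groups did not overlap. The log2 difference in this ratio was 0.59 for deltaNp63alpha against vector, 1.34 for deltaNp63beta against vector and 0.74 between the isoforms (2-sided exact permutation p = 0.1 for each, the smallest value 3 against 3 allows). The ratio of ST14 to SPINT2, the related inhibitor HAI-2, averaged 0.134, 0.173 and 0.334 in the same order.

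**Figure D4:**
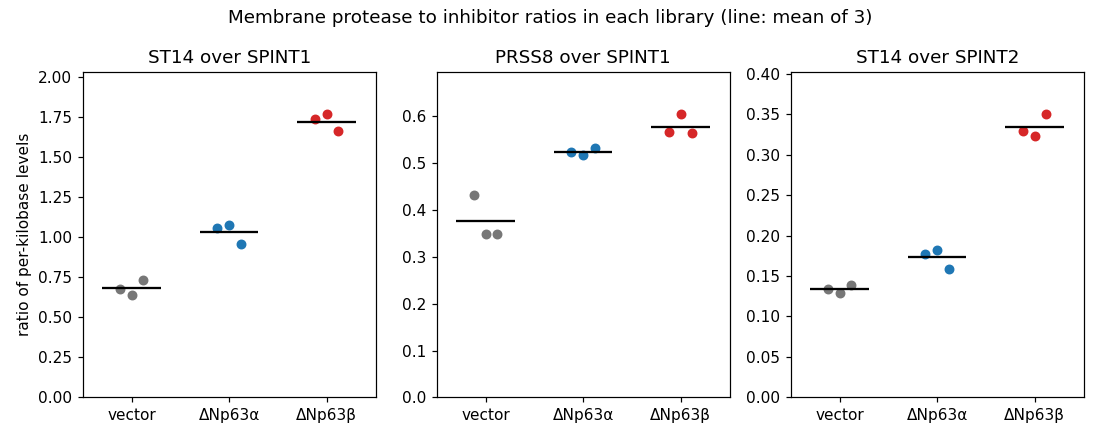
Ratio of per-kilobase levels (vertical axes from 0, one scale per panel) of ST14 to SPINT1, PRSS8 to SPINT1 and ST14 to SPINT2 in each library, with a line at the mean of 3. In each panel the vector libraries lie lowest and the deltaNp63beta libraries highest.

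Summed over the 7 kallikreins per kilobase, the vector libraries held 10.6 to 14.5, the deltaNp63alpha libraries 4.25 to 12.2 and the deltaNp63beta libraries 58.8 to 91.5. SPINK5 per kilobase was 3.59 to 5.59, 31.3 to 41.5 and 35.4 to 64.5 in the same order. The ratio of the summed kallikreins to SPINK5 was 2.10 to 3.13 with vector, 0.102 to 0.348 with deltaNp63alpha and 0.913 to 2.25 with deltaNp63beta. The vector and deltaNp63beta ranges overlapped, and the deltaNp63alpha libraries lay below both. KLK11 made up 35.6% to 71.5% of the vector sums and 1.86% to 6.90% of the deltaNp63beta sums. Without KLK11, an alternative chosen after seeing the data, the ratio was 0.598 to 1.90 with vector, 0.0335 to 0.235 with deltaNp63alpha and 0.850 to 2.21 with deltaNp63beta, and the mean with vector moved from 2.73, above the deltaNp63beta mean of 1.77, to 1.21, below the deltaNp63beta mean of 1.72. The vector and deltaNp63alpha sums rest on very few counts, 7.43 to 22.0 in all.

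Across the 9 libraries, which share the 3 groups, ST14 and SPINT1 had a Pearson r of 0.994 and KLK5 and KLK10 one of 0.976, while SPINK5 and KLK7 had 0.457, the lowest of the 15 pairs. The genes most like each one over the 9 libraries were LETMD1 (0.995) and BTN3A1 (0.989) for KLK5, TMEM126B (0.985) and PCSK1 (0.978) for KLK7, and KIF2C (0.993) and PGBD5 (0.988) for KLK10. For ST14 they were TRIM29 (0.999) and IL20RB (0.998), for SPINK5 ZFYVE21 (0.994) and BAK1 (0.991), and for SPINT1 ST14 (0.994) and PERP (0.994). These correlations describe 9 points in 3 groups and carry no test.

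Of 19 other membrane-anchored serine proteases, 8 were tested, and 1 rose with deltaNp63alpha, 2 rose and 1 fell with deltaNp63beta against vector, and 3 rose between the isoforms. Over all genes tested the shares called higher and lower were 8.13% and 6.37%, 21.8% and 19.5%, and 17.4% and 15.5% in these comparisons. The median log2 fold change of the 8 was -0.19, 0.11 and 0.11 in the same order, against -0.01, 0.00 and 0.00 over all genes tested. PRSS8 (prostasin), which acts in one pathway with matriptase, rose from 467.9, 380.5 and 371.1 with vector to 758.9, 767.9 and 779.9 with deltaNp63alpha and 1159, 1276 and 1305 with deltaNp63beta (log2 1.62 ± 0.09 for deltaNp63beta against vector, limma adjusted p = 1.33e-07). TMPRSS3 rose with deltaNp63beta (1.47 ± 0.20, limma adjusted p = 0.000134). PRSS21 rose between the isoforms (0.43 ± 0.12, adjusted p = 0.0209). TMPRSS6 fell with deltaNp63beta (-2.02 ± 0.63, limma adjusted p = 0.0246), from 15.7, 35.5 and 28.0 with vector to 16.7, 2.05 and 3.93, and the groups overlapped.

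Of 17 other inhibitors of these proteases, 3 were tested, and 1 rose with deltaNp63alpha, with 1 higher and 1 lower both for deltaNp63beta against vector and between the isoforms. SPINT2 rose from 5280, 5218 and 5374 with vector to 8314, 8455 and 8512 with deltaNp63alpha and 10427, 11133 and 10608 with deltaNp63beta (log2 1.02 ± 0.04 against vector, limma adjusted p = 4.31e-09). SERPINC1 (antithrombin) fell with deltaNp63beta against vector (-1.80 ± 0.51, limma adjusted p = 0.016). The median of the 3 was 0.42, 1.02 and 0.35 in the 3 comparisons. Of all genes tested, 8.13%, 21.8% and 17.4% were called higher and 6.37%, 19.5% and 15.5% lower in the same order.

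On a list of 26 genes that holds substrates and receptors of these proteases and related epithelial genes, 18 were tested. With deltaNp63alpha 8 rose and 3 fell, with deltaNp63beta against vector 9 rose and 2 fell, and between the isoforms 9 rose and 2 fell, with medians of 0.19, 0.21 and 0.31. Of all genes tested, 8.13%, 21.8% and 17.4% were called higher and 6.37%, 19.5% and 15.5% lower in the same order. EPCAM, a surface glycoprotein that matriptase cleaves, rose with deltaNp63beta by 3.04 ± 0.10 on the log2 scale (limma adjusted p = 2.91e-09). TGM1, the transglutaminase that cross-links the cornified envelope, went from 93.6, 80.9 and 69.4 with vector to 197.3, 197.2 and 196.0 with deltaNp63alpha and 1373, 1283 and 1525 with deltaNp63beta (4.09 ± 0.12, limma adjusted p = 8.15e-10). IL1B, the precursor of interleukin-1β, rose by 2.72 ± 0.13 (limma adjusted p = 4.33e-08). EPCAM also stands on the mammary epithelial list, whose summed level rose with these genes.
CDCP1, a transmembrane protein cleaved by serine proteases, went down with deltaNp63beta (-0.41 ± 0.04, limma adjusted p = 1.27e-05) and up with deltaNp63alpha (0.26 ± 0.04, adjusted p = 0.00138). F2RL2, a protease-activated receptor, fell with deltaNp63beta (-1.34 ± 0.39, limma adjusted p = 0.0174).
4 further genes were chosen after their values were seen. F2RL1 (PAR2), the receptor that matriptase and KLK5 can activate, was at 1085, 1032 and 1105 with vector, 1490, 1468 and 1462 with deltaNp63alpha and 1869, 1769 and 1788 with deltaNp63beta, and was called higher in all 3 comparisons (0.46, 0.75 and 0.30, each ± 0.05). SCNN1B and SCNN1G, epithelial sodium channel subunits, fell with deltaNp63alpha (-2.09 ± 0.26, limma adjusted p = 0.00026, and -1.34 ± 0.13, adjusted p = 4.66e-05). With deltaNp63beta they were not called against vector (-0.10 ± 0.26, limma adjusted p = 0.797, and -0.20 ± 0.13, adjusted p = 0.258), and they were higher with deltaNp63beta than with deltaNp63alpha (1.99 ± 0.26 and 1.13 ± 0.13). PLAU, the urokinase protease that matriptase can activate, fell with deltaNp63alpha (-0.58 ± 0.06, limma adjusted p = 6.62e-05) and rose with deltaNp63beta (0.34 ± 0.06, adjusted p = 0.00101). The corneodesmosome genes that KLK5 and KLK7 are known to act on were near 0 and were not tested: DSG1 reached at most 2.14, DSC1 at most 3.66 and CDSN at most 9.21.

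Of 16 other desquamation proteases and their inhibitors, 12 were tested, with 3 rising and 1 falling with deltaNp63alpha, and 5 rising and 2 falling both with deltaNp63beta against vector and between the isoforms. Their medians were -0.01, 0.16 and 0.16. Of all genes tested, 8.13%, 21.8% and 17.4% were called higher and 6.37%, 19.5% and 15.5% lower in the same order. CSTA (cystatin A), an inhibitor of cysteine proteases in the cornified layers, rose by 2.33 ± 0.11 with deltaNp63beta against vector (limma adjusted p = 2.55e-08). The lysosomal proteases CTSD and CTSC rose by 1.11 ± 0.05 (limma adjusted p = 4.38e-08) and 0.88 ± 0.05 (adjusted p = 8.18e-08). LGMN, a cysteine protease of lysosomes, rose by 0.55 ± 0.08 (limma adjusted p = 0.000297). CTSB fell (-0.61 ± 0.04, limma adjusted p = 3.18e-07), and CST6, an inhibitor of LGMN and CTSV, fell by 0.99 ± 0.35 (adjusted p = 0.0426).

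**Figure D5:**
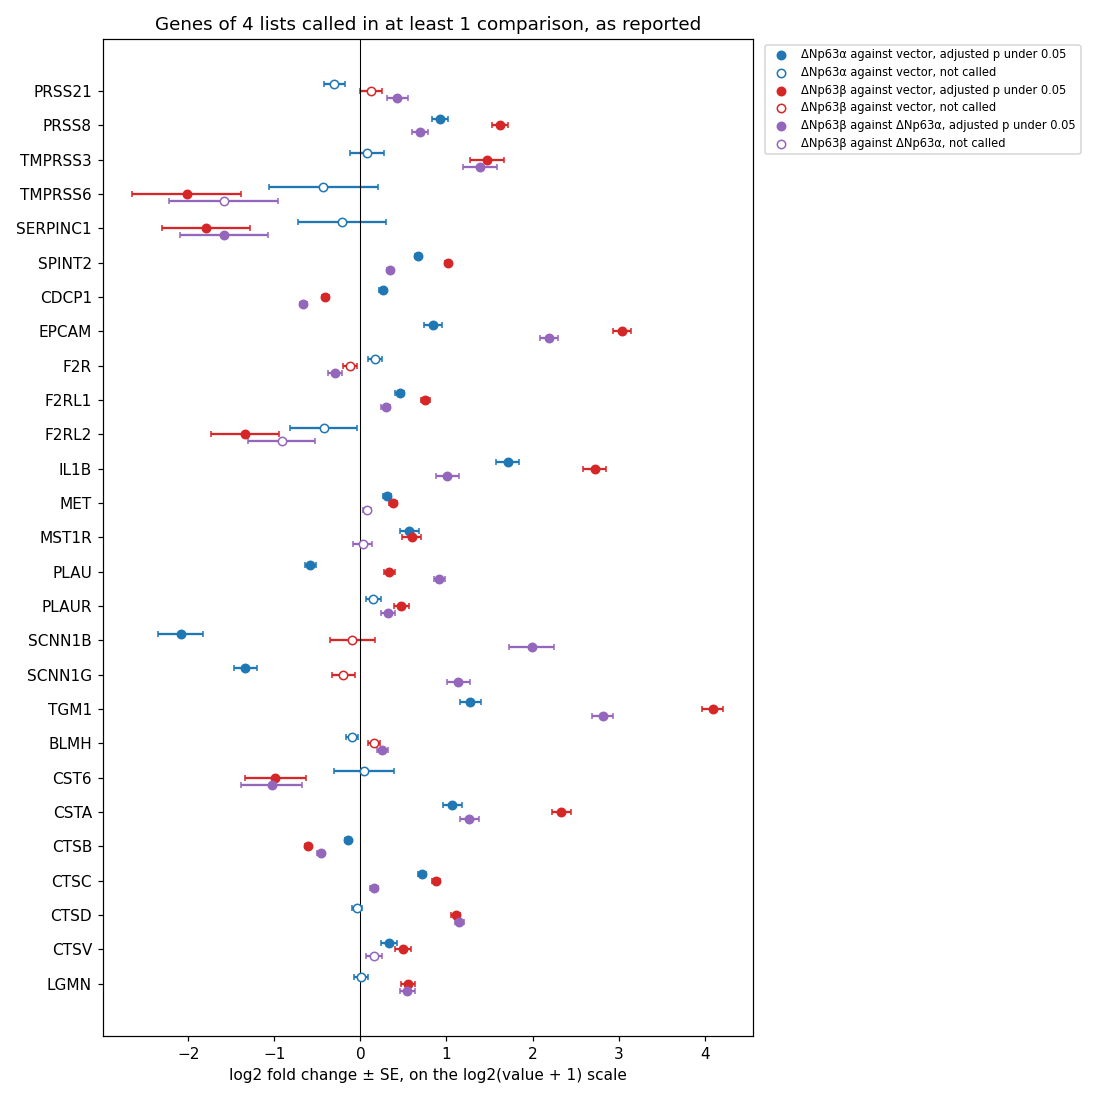
Log2 fold change (horizontal axis, on the log2(value + 1) scale) with its standard error for 27 genes of the 4 lists of other proteases, inhibitors, substrates, receptors and related genes that were called in at least 1 of 3 comparisons, filled where called. Among the genes shown, TGM1 and EPCAM lie farthest to the right with deltaNp63beta, and SCNN1B lies farthest to the left with deltaNp63alpha.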

How the data were processed

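Polyadenylated RNA of MCF10A lines with vector, deltaNp63alpha or deltaNp63beta was sequenced, with 3 libraries per line. The deposited signal values are estimated counts that the authors normalized: the submitters' processing notes name kallisto 0.46.2, DESeq2 (version not given in the sources used here) and GRCh38. The annotation, the counting settings and the use of strand are not given in the sources used here. Low values were whole multiples of a common step for only 60.9% to 63.7% of values (within 0.1 of a whole number, up to 20 steps), so no count test was run. Library totals were 22483140 to 23213870. Symbols came from GENCODE 29.

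Genes with at least 10 in at least 3 of the 9 libraries (15108 of 41857) were tested on log2(value + 1) with limma 3.58.1 in R 4.3.3 (trend and robust variance, all 3 groups in one fit, Benjamini-Hochberg adjusted p under 0.05); log2 values are on that scale and understate changes of low genes. The scripts were tested on simulated data. Named genes were the 10 members, TP63, and from each list up to 4 called genes with the smallest adjusted p for deltaNp63beta against vector and up to 2 in the opposite direction, and the 2 most similar genes per tested member; exceptions are stated. A gene that the rule selects and a marker gene are not reported here. The members and lists were chosen with earlier results of these data known. The p-values weigh differences against the spread between libraries of the same line. Each isoform was measured in its own line, so an effect of the isoform and a difference between lines cannot be told apart. Replicate numbers were not used for pairing, because the labels name no batch. Deviations from the group mean correlated at r = -0.12 to 0.081 between same-numbered libraries and at -0.14 to 0.12 between differently numbered ones. Ratios of levels were tested with exact permutation tests. Alternatives were other pseudocounts, filters, scalings, testing against a fold of 1.5, a block for replicate number and leaving out each library. Libraries left out with the gene set kept were added after seeing the data.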

Additional observations from a re-analysis of the deposited data

How the results depend on the processing

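Leaving out one library at a time, the number of the 10 genes called higher ranged from 3 to 6 for deltaNp63beta against vector and from 2 to 5 for deltaNp63beta against deltaNp63alpha. Without any one deltaNp63beta library, KLK5, KLK7 and KLK10 no longer passed the filter, which gives the lower counts. A mean of at least 50 in place of the filter removes the same 3 genes and gave 3 and 2, and testing against a fold of 1.5 gave 3 between the isoforms. In an alternative chosen after seeing the data, the libraries were left out with the gene set kept, and KLK5, KLK7 and KLK10 then had adjusted p-values of at most 0.0376 (KLK7) in the comparisons with deltaNp63beta. That gene set holds these 3 genes only because they were high in the 3 deltaNp63beta libraries, the left-out one included, so these values do not support the calls lost above. KLK5 and KLK7 changed direction in the deltaNp63alpha against vector comparison, where neither was called: over the leave-outs KLK5 ranged from -0.35 (without deltaNp63alpha replicate 2) to 0.64, and KLK7 from -0.76 to 0.46 (0.16 without vector replicate 1, 0.23 without vector replicate 3, 0.46 without deltaNp63alpha replicate 2). With a replicate block, 3, 6 and 5 genes were called higher, as without it, and the correlation check did not pair the numbers: 2 of 9 libraries were closest to their own number. Over all genes tested, calls against a fold of 1.5 numbered 134 higher and 47 lower for deltaNp63alpha against vector, 516 and 387 for deltaNp63beta against vector and 231 and 187 between the isoforms, in place of 1229 and 963, 3293 and 2953, and 2625 and 2340. Over the libraries left out, lower calls with deltaNp63alpha against vector numbered from 640 (without vector replicate 3) to 1022 (without deltaNp63beta replicate 1). They numbered 641 without vector replicate 2 and 642 without deltaNp63alpha replicate 3. ST14 kept its calls in all alternatives, from 2.30 to 2.38 for deltaNp63beta against vector.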

Other observations

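HPN (hepsin) and TMPRSS6, membrane serine proteases, and SERPINC1 were chosen after their values were seen, for their uneven deltaNp63beta libraries. HPN was at 14.6, 43.4 and 32.5 with vector, 21.8, 19.8 and 17.0 with deltaNp63alpha and 28.3, 1.25 and 6.07 with deltaNp63beta. SERPINC1 was at 118.2, 201.7 and 226.9 with vector, 223.3, 131.0 and 118.7 with deltaNp63alpha and 112.8, 20.8 and 52.0 with deltaNp63beta. In all 3 genes the first deltaNp63beta library was the highest of its group. HPN was not called in deltaNp63beta against vector (-1.88 ± 0.77, limma adjusted p = 0.0735).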
